A study of Homo sapiens with 6 samples.

Results

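Pyroptosis and necroptosis are lytic forms of programmed cell death, and the genes followed here encode their core machinery. The list, taken by symbol, holds 10 genes: the inflammasome sensors NLRP1 and NLRP3, the adaptor PYCARD, the inflammatory caspases CASP1 and CASP4, the pore-forming gasdermin GSDMD, the kinases RIPK1 and RIPK3, the nucleic acid sensor ZBP1 and the executioner MLKL. Of these symbols, 9 were found among the 30267 genes of the deposited table, and RIPK3 is not analysed here. RNA was measured in SW839, an established human renal cell carcinoma line, in 3 libraries of cells with an shRNA against the E3 ubiquitin ligase RNF25 (shRNF25) and 3 libraries of cells with the empty pLKO shRNA vector (shControl). Both groups were cultured in the same medium without a further agent, and by the study's methods such lines were made by lentiviral infection and puromycin selection. The labels carry a single shRNF25 name, so that loss of RNF25 and any action of the hairpin on other targets cannot be told apart. Titles and genotype labels separate the groups, but the treatment text of all 6 samples, controls included, names the shRNF25 plasmid. The labels call the samples biological triplicates without naming separate infections, and p-values measure the spread between these libraries.

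In pyroptosis, a sensor such as NLRP1 or NLRP3 assembles an inflammasome, usually through PYCARD (also called ASC), and activates caspase-1, which matures the cytokines IL-1β and IL-18 and cleaves gasdermin D. The freed part of gasdermin D forms pores in the plasma membrane. Caspase-4 reaches the same substrate without a sensor, by binding bacterial lipopolysaccharide in the cytosol. In necroptosis, RIPK1 or ZBP1 engages RIPK3, which phosphorylates MLKL so that it permeabilizes the membrane. RIPK1 also serves as a scaffold for NF-κB activation downstream of TNF receptors. The study linked NF-κB activity to RNF25, but placed this action apart from the activation of the upstream kinases. Inflammasome sensors are best known from myeloid cells, whereas gasdermin D, caspase-4 and NLRP1 are also used by epithelial cells.

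The libraries held 18647460 to 19943154 reads assigned to genes. The targeted gene, RNF25, stood at a normalized count of 588 ± 92.0 in the controls and 242 ± 25.7 in the knockdown (SD, n = 3 each), which is -1.27 on the log2 scale (limma, SE 0.15, adjusted p = 0.000585). The opposite-strand gene STK36, which covers 11.2% of the exon bases of RNF25, was higher in shRNF25, with a mean of 1183 against 795, and whether reads were counted by strand is not given in the sources used here. The control libraries varied more than the knockdown libraries, with a median SD across genes of 0.26 against 0.0959 on the log2 scale. Correlations between libraries were 0.976 to 0.987 within shControl and 0.994 within shRNF25. By their library names the knockdown libraries form a numbered series, whereas the control names share a stem without such numbering. Whether both groups were prepared and sequenced together is not given in the sources used here. The part of preparation in the differences between the groups was not tested. Of 7 listed markers of renal epithelial carcinoma cells, 6 were detected (10 or more normalized counts in 3 or more libraries), and their sum lay between 65369 and 85480 in shControl and between 76564 and 80030 in shRNF25. Most of this sum came from the keratins KRT8, KRT18 and KRT19, with means of 28459, 16985 and 30927 in shControl. Within this list VIM was higher in shRNF25, at a mean of 832 against 355, and KRT19 was lower, at 22164 against 30927. PAX8, at a mean of 94.0 in shRNF25 against 127 in shControl, did not pass the test, though its groups did not overlap. CA9, a marker of clear cell carcinoma, missed the detection threshold, with a mean of 23.6 in shControl and 4.94 in shRNF25. Replicate 3 of shControl stood at 50.7 for CA9, against 7.74 and 12.3 in replicates 1 and 2, and the groups overlapped. Of 7 leukocyte and macrophage markers, 2 were detected (PTPRC and CSF1R), and the sum was 43.1 to 63.7 in shControl and 29.5 to 51.9 in shRNF25. The defining myeloid factor SPI1 stayed at a mean of 2.46 in shControl and 0.92 in shRNF25, and none of the 4 T cell and NK cell markers was detected. Of the fibroblast markers, COL1A1 was lower and COL3A1 higher in shRNF25, the latter with a mean of 162 against 5.69. Of the endothelial markers, CDH5 was lower and KDR higher, but the summed endothelial level overlapped, at 489 to 695 in shControl and 494 to 645 in shRNF25. Most of that sum came from PECAM1, at a mean of 400 in shControl and 452 in shRNF25. The part of these changes in the results below was not tested. In bulk RNA, fewer cells expressing a gene and less RNA per cell cannot be told apart.

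After RNF25 knockdown, transcripts of the pyroptosis sensor NLRP1 and of the caspases CASP1 and CASP4 fell, and the transcript of the necroptosis and NF-κB kinase RIPK1 rose. The pore former GSDMD, the executioner MLKL and the sensor NLRP3 did not pass the test, and PYCARD and ZBP1 had too few reads to be tested. With limma's adjusted p below 0.05, 3 of the 7 tested genes of the list were lower, where 10.8% of all 16554 tested genes were lower, and 1 was higher, where 10.5% of all tested genes were higher. Genes called in either direction made up 21.3% of all tested genes. With the study's additional criterion of a fold change of at least 1.5, the same 3 genes were lower (background 7.1%) and 0 were higher (background 8.65%), since RIPK1 rose 1.49-fold. The log2 fold changes of the 7 tested genes had a median of -0.53, beside -0.01 over all tested genes. All libraries of one group lay outside the range of the other for 5 of the 7 tested genes, 4 lower (background 21.8%) and 1 higher (background 20.7%), and 42.5% of all tested genes showed such a separation. The untested PYCARD also separated, with higher values in shRNF25. The 7 tested genes reached a normalized count of 10 in each of the 6 libraries, so the filter on low values did not choose them by group.

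**Figure D1:**
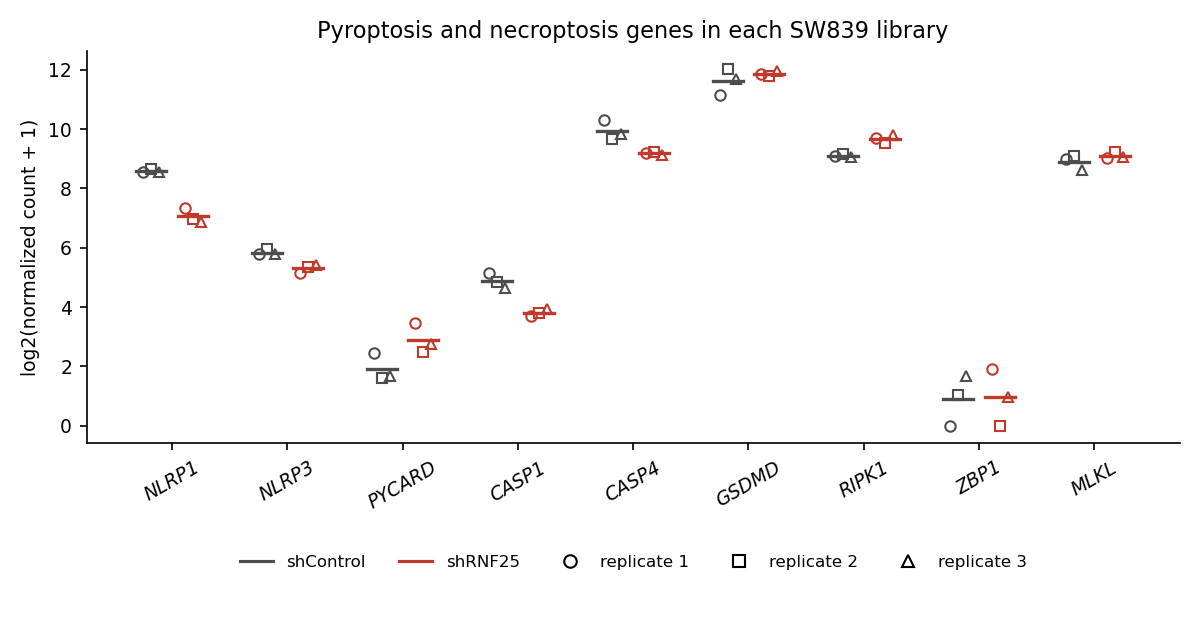
Normalized counts of the 9 listed genes in each library, as log2(normalized count + 1), with a symbol for each replicate and a bar for the mean of each group. The NLRP1, CASP1 and CASP4 points of shRNF25 lie below those of shControl, the RIPK1 points lie above them, and the GSDMD and MLKL points overlap.

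Among the sensors, NLRP1 showed the largest change of the 7 tested genes. NLRP1 recognizes pathogen proteases and double-stranded RNA and is held in check by the peptidases DPP8 and DPP9. In the order of their replicate numbers, the control libraries had 378, 403 and 373 normalized counts and the knockdown libraries 161, 125 and 115. The groups were far apart, with a knockdown mean at 34.8% of that in the controls. On the log2 scale NLRP1 fell by 1.53 (limma, SE 0.156, adjusted p = 0.000278), and an exact permutation test on the 6 libraries (two-sided) gave p = 0.1, the smallest that 3 libraries against 3 allow. The NLRP1 gene occupies the minus strand of chromosome 17, 5499427 to 5619424 (GRCh38, GENCODE 29). DPP8 and DPP9, which were among the listed inflammasome regulators, did not pass the test.

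NLRP3, the sensor of potassium efflux and of other membrane disturbance, lies on chromosome 1 from 247416156 to 247449108. It had a normalized count of 54.2, 60.5 and 54.0 in shControl and 34.6, 39.7 and 41.9 in shRNF25. Every knockdown library was below every control library (two-sided exact permutation test, p = 0.1), but the log2 fold change of -0.53 (95% interval -0.96 to -0.10) had an adjusted p of 0.0797 with limma and did not pass. It passed with quantile normalization alone among the 16 alternatives run (log2 fold change -0.70, adjusted p = 0.0344). The values rest on 49, 59 and 50 reads in shControl and 38, 43 and 44 reads in shRNF25.

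PYCARD, the adaptor that joins the sensors to caspase-1, was close to the limit of detection. It was covered by 4, 2 and 2 reads in shControl and by 11, 5 and 6 reads in shRNF25, which correspond to normalized counts of 4.42, 2.05 and 2.16 and of 10.0, 4.62 and 5.72. All 3 knockdown libraries were above all 3 control libraries, with 22 reads in total against 8. The ratio of the groups' shares of reads was 2.76 (95% exact interval 1.18 to 7.16, which covers counting error only). This ratio is scaled by the total of reads on genes. By normalized counts, the scale used elsewhere, the ratio was smaller, with the knockdown mean at 236% of that in the controls. An interval on that scale was not computed and would lie lower. The gene failed the filter on low values and was not tested, and without that filter its log2 fold change of 1.00 had an adjusted p of 0.206 (limma). The antisense gene PYCARD-AS1 overlaps 59.7% of the exon bases of PYCARD, and the sources used here do not say whether reads were counted by strand.

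CASP1 and CASP4, both on chromosome 11, fell together. CASP1, the protease that matures IL-1β, extends from 105025443 to 105035250 on the minus strand. Its normalized count was 34.3, 27.7 and 23.7 in shControl and 11.8, 12.9 and 14.3 in shRNF25. The knockdown libraries were all below the control libraries, on 13, 14 and 15 reads against 31, 27 and 22. The log2 fold change was -1.06 (limma, SE 0.26, adjusted p = 0.0192). The adjusted p rose to between 0.0636 and 0.0879 when any 1 of the 3 shRNF25 libraries was left out. Of the 50-base words in CASP1 transcripts, 4.37% also occur in CARD16, an inhibitory decoy made of a caspase-1 recruitment domain. CARD16 itself had 6, 0 and 5 reads in shControl and 1, 1 and 2 reads in shRNF25, and was not tested.

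CASP4, the human receptor for cytosolic lipopolysaccharide, lies from 104942866 to 104969436 on the minus strand and was far more abundant. Its normalized count was 1257, 819 and 915 in shControl and 589, 605 and 555 in shRNF25. Replicate 1 of shControl was the highest library, and the groups did not overlap. The mean fell to 58.5% of that in the controls, which was -0.75 on the log2 scale (limma, SE 0.159, adjusted p = 0.0104). Without shControl replicate 1 it was -0.57, still past the threshold. Leaving out shRNF25 replicate 1 or 3 brought the adjusted p to 0.0541 or 0.059. CASP5, the neighbouring and closely related caspase, is not analysed here, and 0.132% of the 50-base words of CASP4 transcripts occur in it.

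GSDMD, the pore former that both caspases cleave, was the most abundant transcript of the list and did not pass the test. The gene occupies 143553207 to 143563062 of chromosome 8. Its normalized count was 2281, 4225 and 3339 in shControl and 3708, 3593 and 3953 in shRNF25. The knockdown values lay within the range of the control values. The log2 fold change was 0.24 with a 95% interval of -0.20 to 0.68 (adjusted p = 0.421, limma), an interval that leaves room for a rise of the size seen for RIPK1. Replicate 1 of shControl set much of this value, and without it the log2 fold change was -0.00304 (adjusted p = 0.987).

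**Figure D2:**
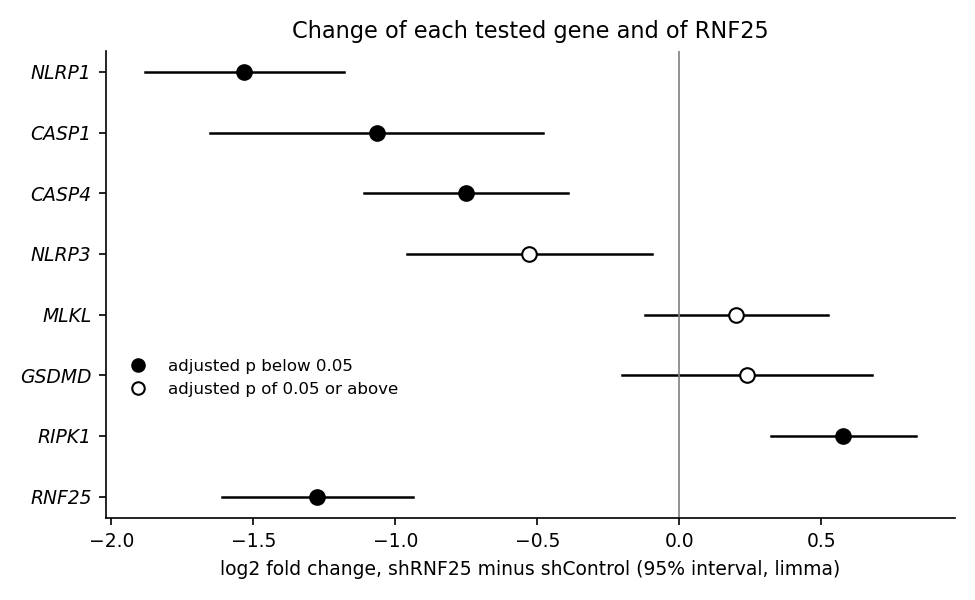
Log2 fold changes of the 7 tested genes and of RNF25, shRNF25 minus shControl, with the 95% interval of limma as a line and a filled point where the adjusted p is below 0.05. NLRP1 at -1.53 had the largest fall of the 7 genes and RIPK1 at 0.58 was the only filled point above 0.

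Of the necroptosis genes, RIPK1 and MLKL had enough reads to be tested, and RIPK1 rose. RIPK1 is the kinase that decides between survival signaling and death at TNF receptors, and its gene lies on chromosome 6 from 3063991 to 3115187 on the plus strand. Its normalized count was 547, 577 and 529.9 in shControl and 841, 749 and 885 in shRNF25. The groups were separated by a wide gap and neither varied much, with coefficients of variation of 4.28% and 8.39%. The log2 fold change was 0.58 (limma, SE 0.114, adjusted p = 0.00729). It ranged from 0.53 to 0.66 over the 16 alternatives, and without shRNF25 replicate 1 or 3 the adjusted p was 0.054 or 0.0615. The antisense gene AL031963.3, which overlaps 5.62% of the exon bases of RIPK1, reached a normalized count of 12.0 at most.

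The RefSeq promoter table (GRCh38.p14) holds 3 starts for RIPK1, the listed gene called higher, and the 250 bases before the first and the second start are shown because they differ in an interferon response element. The element, searched on either strand as TTTC, any 2 bases and TTTC, is in capitals. The first window is chr6:3063717-3063966 on the plus strand, upstream of the GENCODE gene. The second is chr6:3068128-3068377 on the plus strand, in an intron of the GENCODE gene and outside its exons.
RIPK1 first start: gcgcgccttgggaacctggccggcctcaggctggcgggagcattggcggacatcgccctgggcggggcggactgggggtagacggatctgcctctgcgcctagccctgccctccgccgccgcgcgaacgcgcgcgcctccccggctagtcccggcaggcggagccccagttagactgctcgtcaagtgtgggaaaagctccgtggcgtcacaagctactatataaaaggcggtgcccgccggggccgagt
RIPK1 second start: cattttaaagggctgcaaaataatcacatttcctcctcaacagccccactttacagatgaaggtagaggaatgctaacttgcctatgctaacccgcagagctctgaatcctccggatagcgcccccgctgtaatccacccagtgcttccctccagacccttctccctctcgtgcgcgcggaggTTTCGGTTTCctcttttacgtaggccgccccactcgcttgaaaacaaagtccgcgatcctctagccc
The match lies 67 to 58 bases before the second start and is the same stretch of the genome that is found 183 to 174 bases before the third start. Such a match was present in 3.57% of all 35116 promoter windows, each of 250 bases before and 50 bases after a start. CASP4, NLRP3, PYCARD and MLKL also have a promoter in the table, 5 of the 9 genes in all. Their windows held no match to this element. No window of the 5 genes, RIPK1 included, matched a form of the NF-κB element, GGG followed by any 2 bases and TTTCC (1.91% of all windows). A STAT site, TTC, any 3 bases and GAA (7.66% of all windows), was also searched and had no match in them. For CASP4 and PYCARD, all 250 bases before the start lie within the gene's own GENCODE exons. Sequence before other starts of these genes was not searched. The matches are descriptions of the sequence, and none of these data show a factor bound there.

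MLKL, the pseudokinase that permeabilizes the membrane in necroptosis, is encoded on chromosome 16 from 74671855 to 74700960. It had a normalized count of 509.6, 544 and 397 in shControl and 525, 595 and 536 in shRNF25. The groups overlapped, and shControl replicate 3 was the lowest library. The log2 fold change was 0.20 with a 95% interval of -0.12 to 0.52 (adjusted p = 0.351, limma). ZBP1, the sensor of Z-form nucleic acids on chromosome 20, had 0, 1 and 2 reads in shControl and 3, 0 and 1 reads in shRNF25. No library exceeded the floor of 3 reads, and no difference was detectable at this depth.

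The levels of different genes were compared per kilobase of merged exons. In shControl, GSDMD stood first at 641 ± 190.3 normalized counts per kilobase (SD, n = 3), above 91.1% of the tested genes. It was followed by CASP4 at 137 ± 31.7 and RIPK1 at 130.3 ± 5.58, whose libraries overlapped. MLKL at 84.9 ± 13.5 and NLRP1 at 30.1 ± 1.25 came next without overlap between neighbours. NLRP3 at 11.8 ± 0.79, CASP1 at 7.73 ± 1.44, PYCARD at 1.73 ± 0.81 and ZBP1 at 0.196 ± 0.2 closed the order, again without overlap. In shRNF25, RIPK1 at 195 ± 16.4 and MLKL at 96.9 ± 6.61 stood above CASP4 at 80.3 ± 3.53, with no overlap between these neighbours. NLRP1 at 10.4 ± 1.9 came close to NLRP3 at 8.15 ± 0.79, and PYCARD at 4.09 ± 1.72 overlapped CASP1 at 3.52 ± 0.33. Thus CASP4 went from the second to the fourth place of the list, and the lower end of the order was held by the adaptor, caspase-1 and ZBP1 in both groups. Dividing by the longest transcript exchanged 2 ranks in each group, at NLRP3 and CASP1 in shControl and at PYCARD and CASP1 in shRNF25. The distances between neighbours also depended on the length used. By the longest transcript, NLRP1 stood at 24.6 and NLRP3 at 8.98 in shRNF25. In shControl, CASP4 at 210 and RIPK1 at 132.5 then did not overlap, whereas RIPK1 and MLKL, at 124.6, did.

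**Figure D3:**
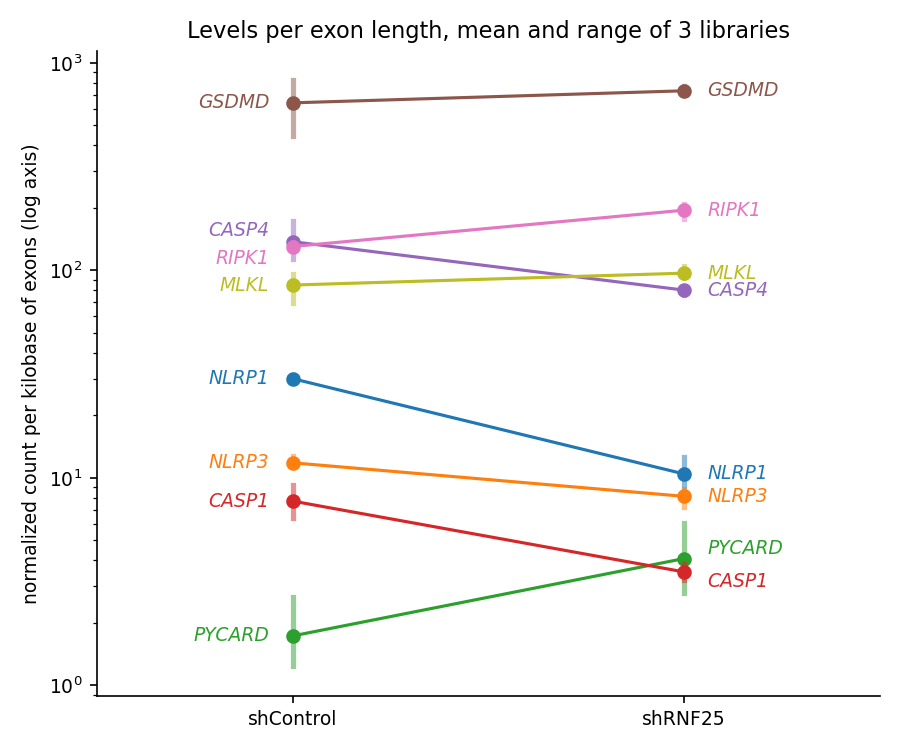
Normalized count per kilobase of merged exons (log axis) in shControl and shRNF25 for the 8 listed genes other than ZBP1, which reached 0.506 at most, with points for the means and vertical bars for the range of the 3 libraries. The lines of CASP4 and RIPK1 part from a common level, and GSDMD stays above the others in both groups.

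The other genes of the pathway were taken from fixed lists. Of the 23 inflammasome sensors and regulators, 21 were listed and 14 tested, with 3 lower (background 10.8%) and 1 higher (background 10.5%) in shRNF25 and a median log2 fold change of -0.33. GBP1, a guanylate-binding protein that coats cytosolic bacteria and recruits caspase-4, fell from 1273 ± 217 to 459 ± 3.0 (SD, n = 3 each), a log2 fold change of -1.45 (adjusted p = 0.000203, limma). GBP2, of the same family, fell by 1.28 on the log2 scale, and the DNA sensor IFI16 fell by 1.09. TXNIP, a thioredoxin-binding protein reported to bind NLRP3, rose by 0.65. The DNA sensor AIM2 had a mean of 2.82 in shControl and 0.62 in shRNF25, below the filter.

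Of the 10 genes for other gasdermins, the rupture factor NINJ1, other caspases and cargo, 9 were listed and 8 tested, with 2 lower (background 10.8%) and 0 higher (background 10.5%). IL1B, the cytokine cargo of caspase-1, was the largest fall, from 23568 ± 3816 to 275.3 ± 55.6 (SD, n = 3 each), a log2 fold change of -6.42 (adjusted p = 4e-07, limma). IL18, the other caspase-1 substrate, did not pass, at 1075 ± 321 and 1081 ± 106 (log2 fold change 0.04, 95% interval -0.38 to 0.47). GSDME, the gasdermin that caspase-3 opens, fell from 608 ± 43.0 to 368 ± 23.4, a log2 fold change of -0.73 (adjusted p = 0.00312, limma). GSDMB, GSDMC and NINJ1 did not pass, with log2 fold changes of -0.18, 0.21 and -0.29. CASP8, which cleaves RIPK1 and blocks necroptosis, did not pass either, at -0.11 (95% interval -0.44 to 0.21).

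All 25 death receptor and RIPK1 regulators were listed and 24 were tested, with 6 lower (background 10.8%), 1 higher (background 10.5%) and 17 that did not pass. The ligand TNF fell by 4.30 on the log2 scale, from a mean of 72.8 ± 10.2 to one of 3.78 ± 4.18 (SD, n = 3 each), so that its value rests on few reads in shRNF25. TNFAIP3 (A20), which edits ubiquitin chains on RIPK1, fell by 2.19, and BIRC3 (cIAP2), a ubiquitin ligase for RIPK1, fell by 1.18. The higher gene was IKBKB, the IKKβ kinase, at 0.43 (adjusted p = 0.0244, limma), named after its value was seen. The adaptor FADD and the caspase-8 inhibitor CFLAR did not pass, with log2 fold changes of 0.28 and -0.20.

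Further down the pathway the shares of called genes were near or below those over all tested genes, 10.8% lower and 10.5% higher. Of the 14 necrosome and MLKL regulators, all tested, 2 were lower and 0 higher, the former being the HSP90 cochaperone CDC37 at -0.39 and the membrane raft protein FLOT1 at -0.57. Of the 14 genes for ESCRT membrane repair, which removes gasdermin and MLKL pores, 2 were lower and 0 higher, the former being CHMP2A at -0.48 and CHMP6 at -0.52. These 4 genes were named after their values were seen, and none reached a fold change of 1.5. The median log2 fold changes of these lists were -0.21 and -0.15.

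The interferon factors and induced genes were included because CASP1, CASP4, MLKL, ZBP1 and the guanylate-binding proteins are known to respond to interferon. Of the 19 genes, all tested, 6 were higher (background 10.5%) and 2 lower, a share near the background of 10.8%, with a median log2 fold change of 0.40. IFIT2 rose by 1.21, IFI6 by 0.97 and IFI44L by 0.86 on the log2 scale, all of them interferon-induced antiviral genes. The chemokine CXCL10 fell by 2.27. IRF2, a transcription factor known to drive GSDMD expression, fell from 389 ± 97.7 to 215 ± 17.7 (SD, n = 3 each), a log2 fold change of -0.83 (adjusted p = 0.0115, limma). In fits without shRNF25 replicate 1, 2 or 3, only 1, 2 and 1 of these genes were called higher.

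**Figure D4:**
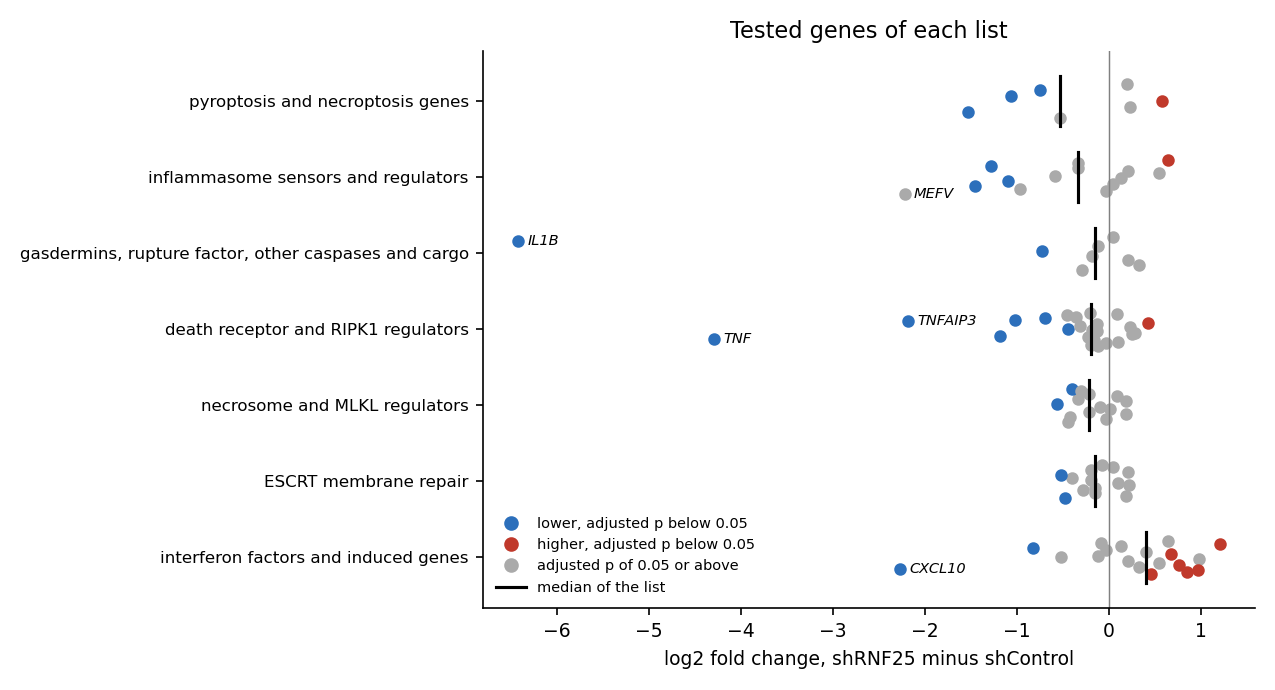
Log2 fold changes of all tested genes of the pyroptosis and necroptosis list and of the 6 pathway lists, shRNF25 minus shControl, colored by direction where the adjusted p was below 0.05, with a black bar at the median of each list. IL1B at -6.42 and TNF at -4.30 lie far to the left, and the median of the interferon list, 0.40, is the only one above 0.

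**Figure D5:**
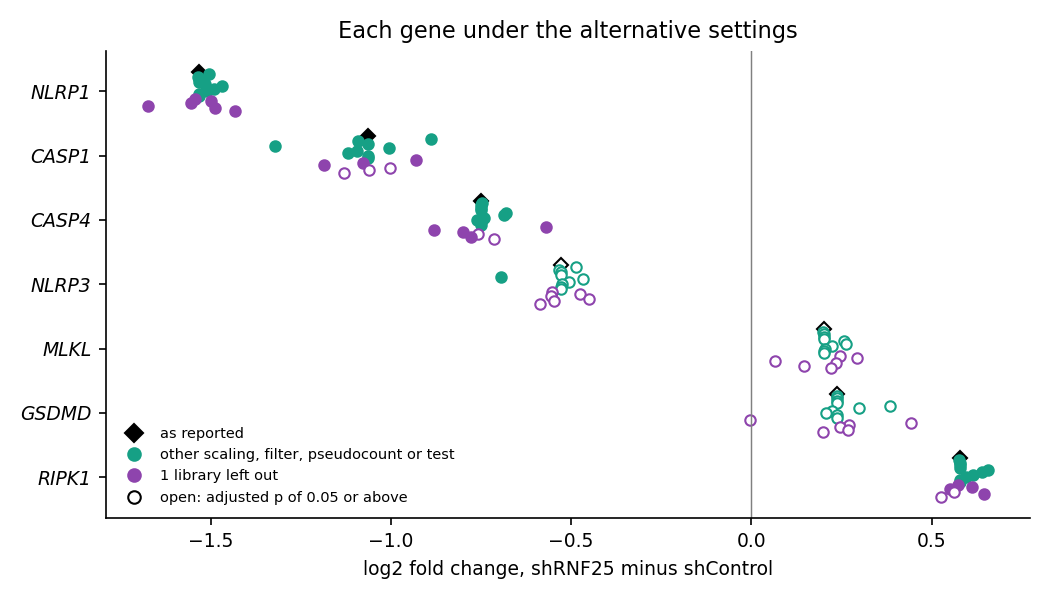
Log2 fold changes of the 7 tested genes as reported (diamond) and under the alternative settings (circles), with open symbols where the adjusted p was 0.05 or above. NLRP1 is filled throughout, the open symbols of CASP1, CASP4 and RIPK1 are all fits with 1 shRNF25 library left out, NLRP3 is filled with quantile normalization alone, and GSDMD and MLKL are open throughout.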

How the data were processed

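The authors deposited a normalized count for each gene and library, a signal made by dividing reads by 1 scaling factor per library. Per the labels, fastp, HISAT2, HTSeq and GRCh38 were used, and per the methods an rRNA-depleted stranded library and DESeq2. Annotation and strand setting of the counting are not given in the sources used here. Every value (100%) was a whole multiple of a step within 0.01 reads, and the factors equaled median-of-ratios size factors. They separated by group, at 0.905 to 0.975 in shControl and 1.05 to 1.10 in shRNF25. Intervals on reads cover counting error only.

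Values of log2(normalized count + 1), on which fold changes of low genes are understated, were fitted with limma 3.58.1 (lmFit, eBayes with trend; R 4.3.3) on all 6 libraries without covariates, for the 16554 genes with at least 10 in at least 3 libraries, with Benjamini-Hochberg adjustment over all of them. Standard errors and 95% intervals are limma's. The recovered reads were also tested with edgeR 4.0.16 (3526 genes called, against 3525 with limma) and DESeq2 1.42.0 (3875). The fit was also run on simulated data with equal spread in both groups, unlike the spread of these libraries. Positions, exon lengths and overlaps come from GENCODE 29 (GRCh38), by symbol.

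The genes and lists were chosen with earlier results of these data known. Named genes are the listed ones, RNF25, up to 3 genes in each direction per pathway list past both criteria, and IL1B, IL18, CASP8, BIRC3, TNF, CARD16 and CASP5. Other genes are named as background or after their values were seen. Same-numbered libraries were not treated as pairs.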

Additional observations from a re-analysis of the deposited data

How the results depend on the processing

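RNF25 and NLRP1 kept their direction and an adjusted p below 0.05 under all 16 alternatives (other pseudocounts, filters, scalings, tests, library weights, a replicate block and 1 library left out), with log2 fold changes of -1.34 to -1.15 and -1.67 to -1.43. CASP1 ranged from -1.32 to -0.89 (largest adjusted p 0.0879), CASP4 from -0.88 to -0.57 (0.059), RIPK1 from 0.53 to 0.66 (0.0615) and MLKL from 0.07 to 0.29. CASP1 has no value under the stricter filter, a normalized count of 50, which it does not reach. GSDMD was -0.00304 to 0.44 across fits without 1 library and fell below 0 without shControl replicate 1. Without 1 library, the count of lower genes of the list was 1 to 3 and of higher genes 0 to 1. The low counts came without shRNF25 replicate 1 or 3, whereas without shRNF25 replicate 2 they were 2 and 1. The cause was not tested. A fold change of at least 1.5 left 0 higher genes.

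The other counts were small and moved more, and the cause was not tested. Lower inflammasome regulators numbered 5 with quantile normalization, 6 with DESeq2 and 2 to 5 without 1 library, and higher ones 2 with rescaling, edgeR or DESeq2 and 1 to 3 without 1 library. Higher RIPK1 regulators numbered 0 with the replicate block or the fold criterion and 0 to 2 without 1 library. Lower necrosome regulators numbered 1 with quantile normalization, 4 with DESeq2, 1 with the replicate block, 0 with the fold criterion and 1 to 6 without 1 library. Lower ESCRT genes numbered 1 with either other filter, quantile normalization, rescaling or edgeR, 0 with the fold criterion and 0 to 5 without 1 library, and higher ones 0 to 3 without 1 library. Higher gasdermin and cargo genes numbered 0 to 1 without 1 library. Lower interferon genes numbered 1 with the stricter filter and 1 to 4 without 1 library, and higher ones 1 to 8 without 1 library. Ranks changed at 2 places in each group with the longest transcript. Other scalings moved the median of all genes by at most 0.06. Each of them aligns the bulk of genes between libraries, so this small shift does not test the scaling. A fit scaled to the total of reads on genes was not run.

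With the replicate number as a block, 3084 of all genes were called against 3525, and the calls of the 7 tested genes of the list did not change. The deviations of same-numbered libraries correlated at -0.0638, -0.0874 and 0.0471, so the libraries share a number and no sign of pairing was seen.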
